A study of Homo sapiens with 18 samples.

Results

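The 94 RNAs described here carry symbols of long intergenic noncoding RNAs (LINC RNAs), though not all are annotated as such now. By their mean over TPC1 and D11 cells together, they were expressed. They were chosen by name and by level: of the 58302 genes in the table, 1876 carry a symbol made of LINC and a number, and 94 of these (5.01%) had a mean of at least 30 over the 18 libraries. All values are reads scaled to 20 M aligned reads per library (M for the prefix mega), called reads per 20 M below. Beyond the name, only the level entered the choice, so levels are given as a description, and tests are given for differences between groups. That level was the mean over all 6 groups. Of the 94, 17 had a group mean under 30 and passed through the other groups. Among them were LINC00607, LINC01234, LINC01341, LINC02188, LINC02001, LINC02015, LINC01504, LINC00501, LINC00601 and LINC01910. For these the choice is not independent of the tests, nor of whether groups overlap. Of the remaining LINC genes, 945 were listed at 0 in every library. Just inside the limit were LINC00601 with a mean of 30.8, LINC01772 with 31.7 and LINC00920 with 32.9, and just outside were LINC01572 with 29.9, LINC00565 with 29.4 and LINC00923 with 29.2.

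Poly-A selected RNA was sequenced in TPC1, a cell line from a human papillary thyroid carcinoma, and in D11, a single clone of TPC1 in which CRISPR-Cas9 left 1 wild-type Dicer1 allele, written Dicer1 (+/-). Each line was left non-transfected (NT), received a negative control siRNA (NC), or received siRNA against Dicer1 (siDicer), with siRNA at 5 nM and RNA collected on day 4. Each of the 6 groups had 3 libraries, and the control group of a line was its 6 libraries of NT and NC. The study's methods state in general that experiments were repeated independently, but the labels do not tie these libraries to separate cultures. The p-values measure the spread between these libraries, which may be technical in part.

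LINC RNAs are transcribed by RNA polymerase II from their own genes between protein-coding genes, and most are capped, spliced and polyadenylated like messenger RNAs while lacking a long reading frame. Many are found mainly in the nucleus, some act on neighbouring genes or as scaffolds for proteins, some hold microRNA hairpins in their introns or exons, and a few were later found to encode small peptides. Dicer is the cytoplasmic enzyme that cuts microRNA hairpins into mature microRNAs, which in turn pair with target RNAs through a short seed near their 5′ end.

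Among the 94 LINC RNAs, 3 hold a microRNA gene on their own strand, by the GENCODE annotation. LINC00472 holds MIR30C2 in an exon and MIR30A in an intron, LINC00969 holds MIR570 in an intron, and LINC02486 holds MIR4453 in an exon. LINC01588 has MIR6076 in an intron on the opposite strand. The mature products of the hairpins on the same strand, the direct Dicer products that overlap these RNAs, are given below 5′ to 3′ from RefSeq (GRCh38.p14), with the seed, bases 2 to 8, in capitals. Mature microRNAs were not measured in these libraries. The 5p products of MIR30A and MIR30C2 share the seed GUAAACA, and none of the other seeds was shared.
hsa-miR-30a-5p: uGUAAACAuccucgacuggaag
hsa-miR-30c-5p: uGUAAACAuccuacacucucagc
hsa-miR-30a-3p: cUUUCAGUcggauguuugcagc
hsa-miR-30c-2-3p: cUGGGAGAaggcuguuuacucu
hsa-miR-570-5p: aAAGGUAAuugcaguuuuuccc
hsa-miR-570-3p: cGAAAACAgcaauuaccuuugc
hsa-miR-4453: gAGCUUGGucuguagcgguu

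RefSeq promoter windows, from 250 bases before to 50 bases after a transcription start, matched 66 of the 94 LINC RNAs, with 75 windows. Each window was searched for 6 short motifs, on either strand. TGAGTCA, the letters that AP-1 factors such as FOS and JUN are known to bind, stood in the windows of 14 of 66 LINC RNAs (21.2%) and of 6.05% of all 27305 genes with a window. The shares were closer for the others: TATAAA in 18.2% of LINC RNAs and 14% of all genes, CCAAT in 50% and 39.7%, TGACGTCA in 3.03% and 2.25%, CACGTG in 9.09% and 8.77%, and GGGCGG in 43.9% and 48.3%. A match describes the letters only. Of the LINC RNAs with a window that rose or fell with siDicer in either line, described below, TGAGTCA stood in 3 of 13 that fell and 1 of 5 that rose, and in 10 of 48 that were not called. For each of these 4 RNAs, the window that holds the letters is shown to let the reader see where they lie. LINC00339 has another window, chr1:22025254-22025553, which holds no match and is not shown. TGAGTCA, or TGACTCA where it lies on the other strand, is in capitals (GRCh38.p14, each written 5′ to 3′ on the strand of the gene).
LINC00601, chr10:126421830-126422129, minus strand: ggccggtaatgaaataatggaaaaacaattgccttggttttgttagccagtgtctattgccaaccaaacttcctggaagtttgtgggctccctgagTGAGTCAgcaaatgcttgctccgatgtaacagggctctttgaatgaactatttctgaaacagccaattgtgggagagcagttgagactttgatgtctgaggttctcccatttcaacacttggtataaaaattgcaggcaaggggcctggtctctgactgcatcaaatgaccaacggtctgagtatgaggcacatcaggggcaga
LINC01504, chr9:72305186-72305485, plus strand: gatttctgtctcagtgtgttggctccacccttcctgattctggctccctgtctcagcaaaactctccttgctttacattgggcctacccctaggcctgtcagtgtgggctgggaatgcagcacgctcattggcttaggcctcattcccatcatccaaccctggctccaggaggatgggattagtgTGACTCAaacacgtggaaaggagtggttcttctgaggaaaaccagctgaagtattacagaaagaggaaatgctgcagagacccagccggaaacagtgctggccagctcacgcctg
LINC00339, chr1:22024941-22025240, plus strand: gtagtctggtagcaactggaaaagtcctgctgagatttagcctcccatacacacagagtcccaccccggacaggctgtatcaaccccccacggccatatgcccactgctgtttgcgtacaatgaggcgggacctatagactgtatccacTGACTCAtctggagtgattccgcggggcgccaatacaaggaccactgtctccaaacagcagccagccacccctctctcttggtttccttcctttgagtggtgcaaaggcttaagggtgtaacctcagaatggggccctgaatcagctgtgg
LINC00607, chr2:215843487-215843786, minus strand: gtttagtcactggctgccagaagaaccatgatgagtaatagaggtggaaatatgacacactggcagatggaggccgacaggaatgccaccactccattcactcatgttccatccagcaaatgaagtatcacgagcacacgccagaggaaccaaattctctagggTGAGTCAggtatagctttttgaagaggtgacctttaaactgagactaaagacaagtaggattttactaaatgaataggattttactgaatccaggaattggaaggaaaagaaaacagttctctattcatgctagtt
The letters begin 154 bases before the start in LINC00601, 65 in LINC01504, 101 in LINC00339 and 86 in LINC00607.

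Sequencing depth, recovered from the step between neighbouring values, ran from 11.3 to 23.2 M reads with the median library at 15.9 M, so that 1 read was worth 0.861 to 1.77 units and the lowest LINC RNAs rested on few reads. Replicate 2 of each TPC1 group and D11 NT replicate 1 stood apart from the other replicates of their groups. The chi-square per gene over all genes was 16 to 40.9 for the TPC1 pairs that hold a replicate 2 and 4.36 to 7.25 for the other TPC1 pairs, and it was 19.5 and 35.1 for the pairs of D11 NT replicate 1 and 6.09 to 17.96 for the other D11 pairs. Of 6 thyroid follicular markers, PAX8 was at 7361 to 14886 reads per 20 M, FOXE1 at 61 to 214 and TG at 32 to 124, while SLC5A5 and TSHR did not exceed 2 and NKX2-1 was at 0 in every library. Of 6 epithelial markers, the keratins KRT8 (5715 to 13581) and KRT18 (2908 to 6564) were high, while KRT19, EPCAM and CDH1 did not exceed 8 in any library. The keratin KRT7 was called higher with siDicer in TPC1 (450, 287 and 455 against 150 to 285, log2 change 0.82 ± 0.20, adjusted p = 0.0231) and not in D11 (0.34 ± 0.19). Of 4 fibroblast markers, DCN was at 0 throughout and COL1A2 did not exceed 2, but PDGFRB was called higher with siDicer in both lines (log2 change 1.82 ± 0.55 in TPC1 and 1.60 ± 0.31 in D11), and the summed level of the 4 was 110 to 279 with siDicer against 90 to 120 in TPC1 controls, and 149 to 239 against 53 to 133 in D11 controls. The part of these rises in the results below was not tested.

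DICER1 itself followed the group labels. In TPC1 it was at 255, 395 and 246 reads per 20 M in the siDicer libraries, against 1397 to 1582 in NT and 1901 to 2492 in NC. In D11 it was at 297, 451 and 277, against 655 to 1157 in NT and 1407 to 1536 in NC. No siDicer library reached a control library in either line. The log2 change was -2.64 ± 0.21 (SE) in TPC1 and -1.77 ± 0.25 in D11 (adjusted p = 0.000337 and 0.000649, limma). In the control libraries it was lower in D11 than in TPC1, at -0.68 ± 0.12 (adjusted p = 0.00561).

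The LINC RNAs were a small part of the transcriptome with a steep order of levels. They took 0.107% of all reads, between 0.10% and 0.122% in single libraries, and LINC00958 and LINC00963 alone held 23.5% of that, the 10 highest 47.9%. The means ran from 30.8 to 2607 with a median of 113, and 41 of 94 lay under 100. LINC00958, studied in bladder and other carcinomas, was at 1947 to 3163 reads per 20 M over the 18 libraries. LINC00963, studied in prostate carcinoma, was at 2028 to 3611, with its highest value in TPC1 NT replicate 2. LINC00094, which current annotation names BRD3OS and lists as protein-coding, was at 1068 to 1306 and had the narrowest spread of group means of the 94, with the highest group at 1.09 times the lowest.

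**Figure D1:**
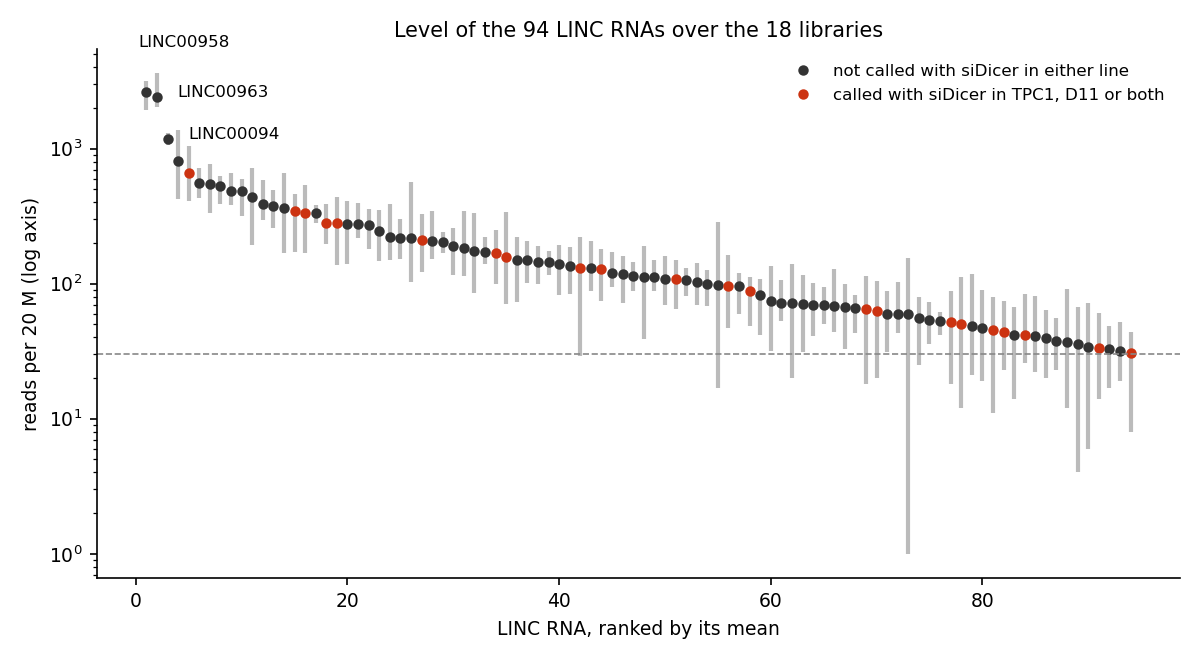
Level of each of the 94 LINC RNAs in reads per 20 M (log axis), ordered by the mean over 18 libraries. Points are the means, grey bars run from the lowest to the highest library (a library at 0 is drawn at 1), red points mark the 22 LINC RNAs called with siDicer in TPC1, D11 or both, and the dashed line is the limit of 30; red points lie along the whole order, with the highest at 665.

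Per length, the order differed. By mean reads per 20 M per kb of annotated exon, LINC00680 (571), LINC00973 (565), LINC00958 (452), LINC00674 (413), LINC02274 (307), LINC01111 (266), LINC01943 (263), LINC00941 (208), LINC00094 (198) and LINC00963 (173) stood highest, against a median of 23.8 over the 94. LINC00680 and LINC00674 are transcribed pseudogenes whose annotated exons span only 181 and 160 bases, so their levels per kb are uncertain. LINC00963, with 14066 bases of exon, ranked 2 by reads and 10 per kb. Apart from LINC00941, none of these 10 was called with siDicer against the 6 controls of a line without a replicate block. With the replicate number as a block, LINC02274 and LINC01111 were called lower in TPC1. Against NC alone, LINC02274 was called lower in TPC1 and D11 (log2 change -1.18 ± 0.16 and -0.89 ± 0.20, adjusted p = 0.00823 and 0.0167), and against NT alone LINC00973 was called lower in D11 (-0.70 ± 0.13, adjusted p = 0.00512). Without the libraries numbered 2, LINC02274 was called lower in both lines and LINC00973 in TPC1.

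The name covers a mixed set. GENCODE release 44 lists 86 of the 94 as lncRNA, 4 as protein-coding, 3 as transcribed unprocessed pseudogenes and 1 as a transcribed unitary pseudogene, and 16 now have another symbol. LINC00116 is now MTLN, which encodes the mitochondrial micropeptide mitoregulin, LINC01021 is PURPL, a p53-induced transcript, and LINC02001 is SNHG30. The median distance from the start of a LINC RNA to the nearest protein-coding start was 58073 bases. For 11 it was within 1000 bases, 7 of them in the divergent orientation, and for 32 it was over 100 kb. In all, 65 of the 94 overlap another annotated gene, 56 on the opposite strand and 34 on the same strand. The strand setting of the authors' counting is not given in the sources used here, so the values of these 65 may hold reads of the other gene.

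With siDicer in TPC1, 4 LINC RNAs rose and 3 fell among the 94 tested, 7.45% in all, against 7.38% of all 18475 genes tested. In D11, 6 rose and 15 fell, 22.3%, against 12% of 18413 genes tested. Calls needed both an adjusted p below 0.05 and at least a 1.5-fold difference, and neither fit had a replicate block. By direction, 3.22% of all genes rose and 4.16% fell in TPC1, and 5.26% rose and 6.75% fell in D11, where 16% of the LINC RNAs fell. In this fit the TPC1 share lay near that of all genes, and the D11 share above it through the LINC RNAs that fell. That share is not independent of the choice by level, in which most libraries were controls. LINC02001, LINC01504, LINC00501, LINC00601 and LINC01910 fell to D11 siDicer means under the limit and passed through other groups. All genes entered at a lower limit, so the shares are not like for like. With the replicate number as a block, TPC1 had 5 higher and 11 lower, beside 781 and 1015 of 18475 genes. The nearness in TPC1 therefore depended on the fit, and the higher share is not shown to be particular to D11. The median log2 change of the LINC RNAs was -0.09 in TPC1 and -0.19 in D11, beside -0.04 over all genes in each line. The summed level of the 94 was 20055, 20806 and 20411 in the D11 siDicer libraries, all below the 6 D11 controls at 21315 to 21950, while the TPC1 siDicer libraries at 20206, 21445 and 20440 overlapped the controls at 21309 to 24339.

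The TPC1 count rested on single libraries. It was 0 higher and 0 lower without siDicer replicate 1 and likewise without siDicer replicate 3. Over all genes, 159 and 287 of 18356 and 168 and 259 of 18367 were then called. Without siDicer replicate 2 it was 3 higher and 13 lower, beside 844 and 1250 of 18308 genes. Without NT replicate 2 it was 8 higher and 8 lower, beside 788 and 889 of 18268 genes. Without the 3 libraries numbered 2 it was 7 higher and 15 lower, beside 1134 and 1421 of 17889 genes. Without NT replicate 1, NT replicate 3, NC replicate 2 or NC replicate 3, the number of higher calls was 1 (472, 458, 552 and 546 over all genes). Without NT replicate 1, NC replicate 1 or NC replicate 2 the number of lower calls was 5 (579, 754 and 653 over all genes). The D11 counts were 5 higher and 15 lower without NT replicate 1, beside 874 and 1170 of 18302 genes. The number of lower calls in D11 was 9 without siDicer replicate 1 (949 over all genes). The number of higher calls was 2 without siDicer replicate 2 and 2 without siDicer replicate 3 (866 and 592 over all genes).

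The direction was mostly shared by the lines. The siDicer comparisons of TPC1 and D11 share no library, and 82 of the 94 LINC RNAs had the same sign in both, 26 higher and 56 lower. Across the 94 LINC RNAs, which are not independent replicates, the log2 changes correlated at Pearson's r of 0.90 and Spearman's rho of 0.870. None of the LINC RNAs called in one line had the other sign in the other. LINC00472, LINC01711 and LINC00265 rose in both lines, where 2.8% of 18037 genes tested in both did so, and LINC02001, LINC00941 and LINC01515 fell in both, where 3.3% did so. LINC00607 was called in TPC1 alone and 15 LINC RNAs in D11 alone. More of all genes were called in D11 too, 2212 of 18413 against 1363 of 18475 in TPC1. The uneven split is therefore not shown to be particular to the LINC RNAs. The difference between lines was tested itself, with the values given last.

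**Figure D2:**
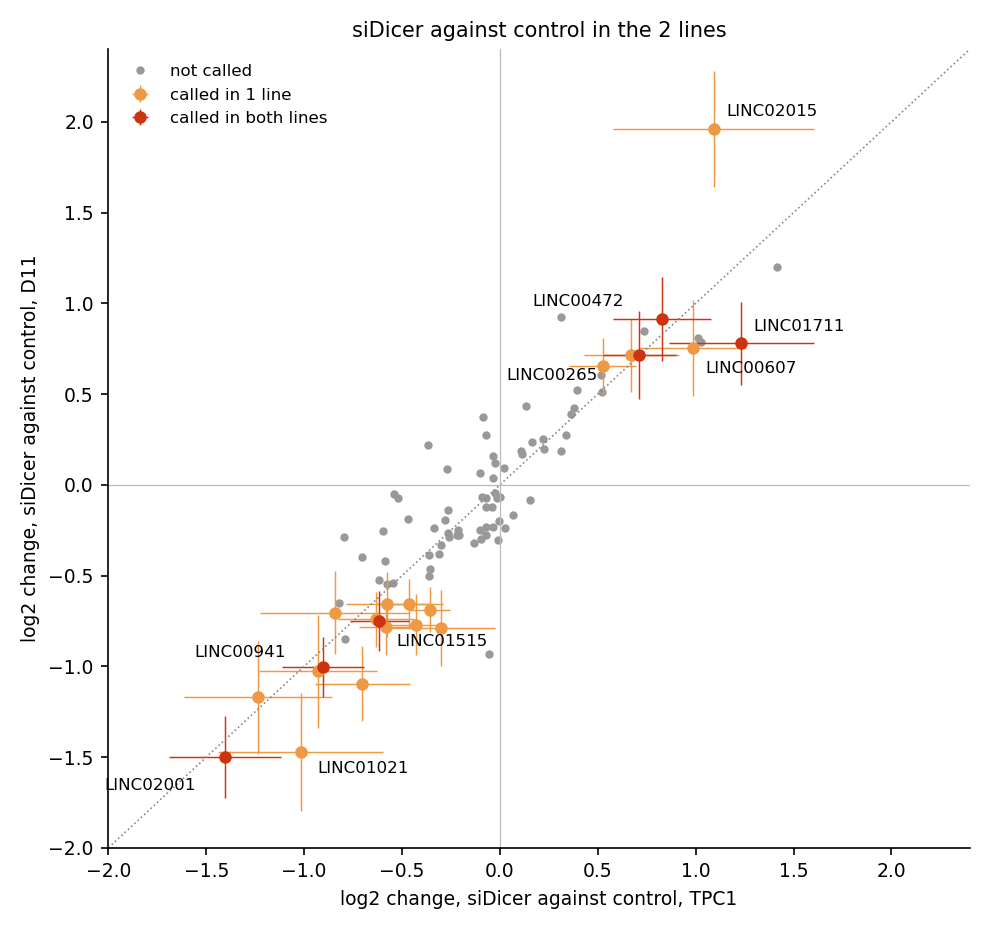
log2 change of each of the 94 LINC RNAs with siDicer against control in TPC1 (horizontal) and D11 (vertical), on the log2(value + 1) scale. Bars are standard errors, drawn for called LINC RNAs only, red marks the 6 called in both lines, orange the 16 called in 1 line, grey the others, and the dotted line is equality; most points lie in the lower left or upper right quadrant, with 82 of 94 of the same sign.

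LINC02001 fell furthest in both lines. It lies at chr17:35568050-35574900 (GRCh38, plus strand), is annotated as the snoRNA host gene SNHG30, and overlaps other genes on both strands. In TPC1 the siDicer libraries were at 22, 51 and 20 reads per 20 M and the controls at 59 to 103 with a median of 76. In D11 they were at 23, 33 and 27 against 53 to 105 with a median of 85.5. All siDicer libraries lay below all controls in both lines. LINC02001 passed the level limit through groups other than D11 siDicer, so its tests are not independent of the choice. The log2 change was -1.41 ± 0.29 in TPC1 and -1.5 ± 0.23 in D11 (adjusted p = 0.0108 and 0.000983, limma). NC lay below NT in every library of both lines as well, at 59 to 72 against 80 to 103 in TPC1 and 53 to 82 against 89 to 105 in D11. The TPC1 call was lost with NC alone as the control, without siDicer replicate 1 and without siDicer replicate 3, with log2 changes of -1.82 to -1.16 over all alternatives.

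LINC00941, studied in epithelial tumours, fell in both lines. It lies at chr12:30755167-30802602 on the plus strand and also overlaps other genes. The TPC1 siDicer libraries were at 155, 187 and 150 against controls at 247 to 440 with a median of 270.5, and the D11 siDicer libraries at 169, 237 and 137 against 297 to 402 with a median of 360.5. The groups did not overlap in either line. The log2 change was -0.90 ± 0.21 and -1.0 ± 0.16 (adjusted p = 0.0175 and 0.00145). Leaving out TPC1 siDicer replicate 1 or 3 ended the TPC1 call, with log2 changes of -1.15 to -0.69 over all alternatives.

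LINC01515 fell in both lines. It lies at chr10:65570338-65880289 on the plus strand and overlaps no annotated gene. The TPC1 siDicer libraries were at 54, 82 and 63 against 93 to 109, median 102.5, and the D11 siDicer libraries at 59, 74 and 49 against 89 to 112, median 100.5. No siDicer library reached a control. This gave log2 changes of -0.62 ± 0.15 in TPC1 and -0.75 ± 0.17 in D11 (adjusted p = 0.0234 and 0.00717). The TPC1 call was lost without NT replicate 1, siDicer replicate 1 or siDicer replicate 3, with either control alone, with a pseudocount of 10 and with median-of-ratios or quantile scaling, at -0.79 to -0.48 over all alternatives, and the D11 call without siDicer replicate 3, at -0.90 to -0.61.

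LINC00472, the RNA that holds MIR30A and MIR30C2 printed above, rose in both lines. It lies at chr6:71187161-71420745 on the minus strand and overlaps 1 gene on the same strand and 4 on the other. In TPC1 the siDicer libraries were at 459, 483 and 432 and the controls at 202 to 504, median 234.5. The value of 504 was NT replicate 2, one of the libraries that stood apart, and the next control was at 256. In D11 the siDicer libraries were at 493, 538 and 397, all above the controls at 170 to 371, median 248. On the log2 scale the change was 0.83 ± 0.25 in TPC1 and 0.91 ± 0.23 in D11 (adjusted p = 0.0498 and 0.0144). The TPC1 call was lost when any single library other than NT replicate 2 was left out, with NT alone as the control, with low values unfiltered and with a pseudocount of 0.1, at 0.64 to 1.02 over all alternatives, and the D11 call without siDicer replicate 1 or 2, at 0.78 to 1.07.

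The other 2 LINC RNAs with a microRNA gene on their strand were lower with siDicer without being called. LINC00969 was at 333 ± 27 (SD, n = 3) with siDicer and 411 ± 27 (SD, n = 6) in TPC1 controls, and at 318 ± 50 and 401 ± 63 in D11, with log2 changes of -0.30 ± 0.10 and -0.33 ± 0.15 (adjusted p = 0.0642 and 0.139). LINC02486 was at 48.3 ± 6.7 and 72.7 ± 10.5 in TPC1, below every control but short of the fold minimum (log2 change -0.57 ± 0.17, adjusted p = 0.0462), and at 42.3 ± 9.9 and 61.8 ± 10.7 in D11 (-0.55 ± 0.21, adjusted p = 0.0839).

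LINC01711 and LINC00265 also rose in both lines. LINC01711, at chr20:58634772-58635738 on the plus strand with no overlapping gene, was at 84, 77 and 114 in TPC1 siDicer against 18 to 60, median 46.5, and at 114, 90 and 89 in D11 siDicer against 41 to 86, median 54.5. The groups did not overlap, although D11 NC replicate 1, at 86, came within 3 of the lowest siDicer library. Its log2 change was 1.23 ± 0.37 and 0.78 ± 0.23 (adjusted p = 0.0490 and 0.0282). LINC00265, at chr7:39733430-39793092 on the plus strand, was at 145, 102 and 132 in TPC1 siDicer against 60 to 97, median 78.5, and at 97, 164 and 146 in D11 siDicer against 47 to 97, median 89.5. The groups did not overlap in TPC1 and touched at 97 in D11. LINC00265 had log2 changes of 0.71 ± 0.19 and 0.71 ± 0.24 (adjusted p = 0.0298 and 0.0497). Both depended on the control group and on single libraries. Against NC alone, LINC01711 was called in neither line, at 1.10 ± 0.36 in TPC1 and 0.47 ± 0.20 in D11 (adjusted p = 0.0921 and 0.145), while against NT alone it was called in D11 (1.09 ± 0.20) and not in TPC1 (1.36 ± 0.39, adjusted p = 0.0728). Its TPC1 call was also lost with quantile scaling, a pseudocount of 0.1 or no filter on low values, and without NT replicate 1 or 3, NC replicate 2 or any siDicer library. Its D11 call was also lost without the filter, without the libraries numbered 2 and without NT replicate 2 or 3 or any siDicer library. The TPC1 call of LINC00265 was lost with NT alone and without NT replicate 3, NC replicate 2 or 3, or siDicer replicate 1 or 3. Its D11 call was lost under 12 of 21 alternatives, which were either control group alone, a pseudocount of 0.1, no filter, no libraries numbered 2, and leaving out any NT library, NC replicate 1 or 3, or siDicer replicate 2 or 3. Over all alternatives LINC01711 stayed at 0.91 to 1.36 in TPC1 and 0.47 to 1.09 in D11, and LINC00265 at 0.61 to 0.87 and 0.56 to 0.94.

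**Figure D3:**
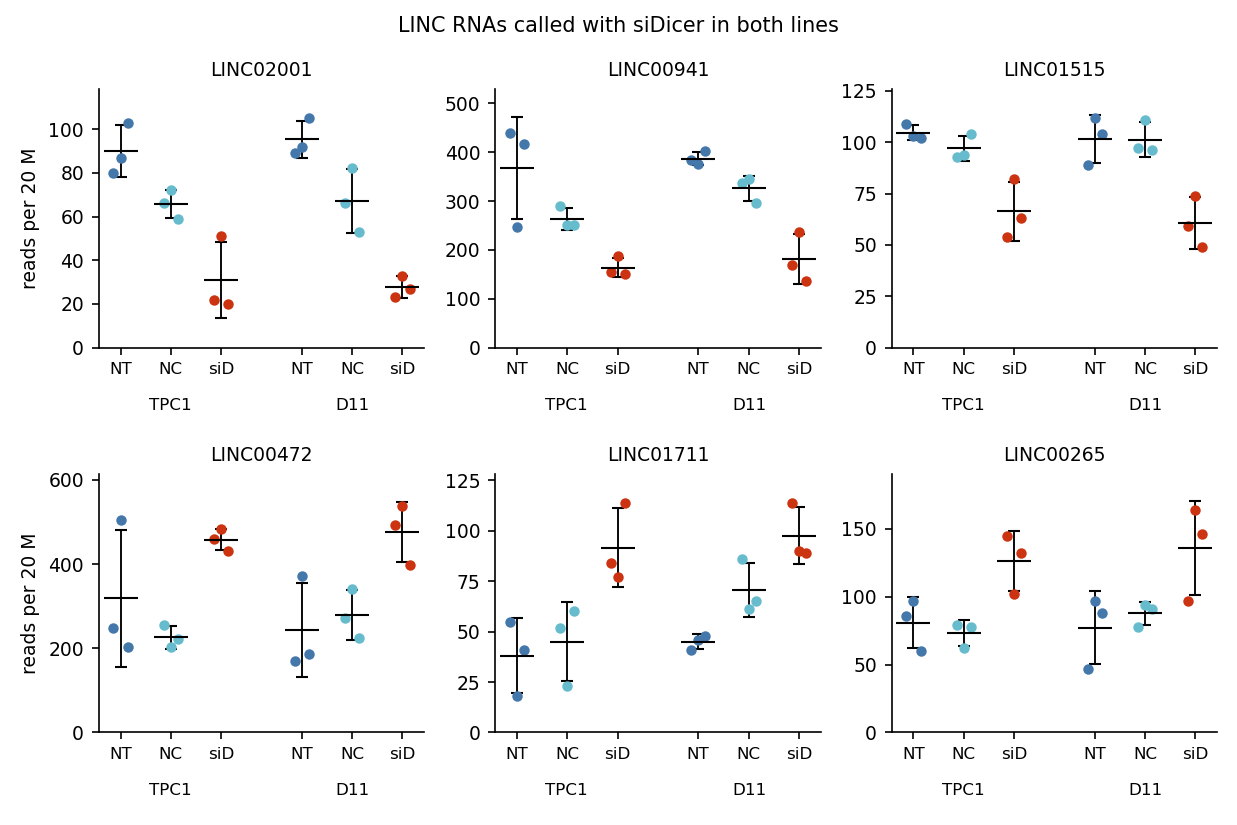
Reads per 20 M in each library for the 6 LINC RNAs called with siDicer in both lines, with NT in dark blue, NC in light blue and siDicer (siD) in red. Points are single libraries, and the bar with whiskers is the mean ± SD of 3; the siDicer libraries lie below all controls for LINC02001, LINC00941 and LINC01515, and TPC1 NT replicate 2 stands at 504 for LINC00472.

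The nearest protein-coding genes of these 6 gave no single picture. IPO8, a nuclear import receptor whose start lies 59.3 kb from that of LINC00941 in the divergent orientation, fell in TPC1 (log2 change -0.80 ± 0.15, adjusted p = 0.00860) and was at -0.57 ± 0.14 in D11 (adjusted p = 0.0110), just under the fold minimum. RALA, a small GTPase 109.9 kb from LINC00265, was at 0.45 ± 0.08 and 0.48 ± 0.09 (adjusted p = 0.00741 and 0.00273), also under the fold minimum. STX16, a syntaxin 16.5 kb from LINC01711, was at -0.07 ± 0.10 and -0.03 ± 0.12, and OGFRL1, 131.9 kb from LINC00472, at -0.27 ± 0.13 and -0.20 ± 0.15, none of them called. SLFN14, 7.2 kb from LINC02001, and LRRTM3, as far as 1356 kb from LINC01515, had group means under 2 reads per 20 M in both lines and were not tested.

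LINC00607 was the LINC RNA called in TPC1 alone. Its TPC1 siDicer libraries were at 56, 45 and 50 against controls at 14 to 36, median 25, and its D11 siDicer libraries at 35, 61 and 41 against 18 to 40, median 25. In TPC1 the groups did not overlap, and in D11 a siDicer library at 35 lay among the controls. Its log2 change was 0.99 ± 0.27 in TPC1 and 0.75 ± 0.26 in D11 (adjusted p = 0.0349 and 0.0587). The difference of the log2 changes, D11 minus TPC1, was -0.23 ± 0.38 with a 95% interval of -1.03 to 0.56, so the lines were not shown to differ. The TPC1 call was lost with NC alone as the control, without the filter on low values and without NT replicate 1, NC replicate 3, siDicer replicate 1 or siDicer replicate 3, at 0.67 to 1.30 over all alternatives.

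Of the LINC RNAs called in D11 alone, LINC02015 had the largest change. Its D11 siDicer libraries were at 102, 64 and 75 against controls at 12 to 32, median 19, with no overlap. LINC02015 passed the level limit through other groups than these controls, so its tests are not independent of the choice. In TPC1 the siDicer libraries were at 112, 76 and 67 against 16 to 111, median 32.5, where the control at 111 was NT replicate 2. The log2 change was 1.96 ± 0.32 in D11 and 1.09 ± 0.52 in TPC1 (adjusted p = 0.00149 and 0.179), and the difference between lines was 0.87 ± 0.64 with an interval of -0.47 to 2.21. With the TPC1 libraries numbered 2 left out, LINC02015 was called in TPC1 too. LINC00511, studied in breast and other carcinomas, was at 865, 835 and 912 in D11 siDicer against 406 to 672, median 590.5, and at 721, 1044 and 738 in TPC1 siDicer against 440 to 714, median 566. No siDicer library overlapped a control in either line, with log2 changes of 0.65 ± 0.16 in D11 and 0.52 ± 0.17 in TPC1 (adjusted p = 0.0107 and 0.0650). LINC01179 was at 40, 49 and 58 in D11 siDicer against 26 to 35, median 28.5 (log2 change 0.71 ± 0.20, adjusted p = 0.0246). The LINC00511 call was lost with NT alone as the control and without NC replicate 1 or siDicer replicate 3, and that of LINC01179 with NT alone (adjusted p = 0.0885), with a pseudocount of 10, with low values unfiltered, without the libraries numbered 2 and without siDicer replicate 2 or 3.

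LINC01021, the p53-induced transcript PURPL that is known to hold p53 levels down, fell in D11. Its D11 siDicer libraries were at 100, 59 and 29 and its controls at 97 to 216, median 168.5. In TPC1 the siDicer libraries were at 130, 89 and 34 and the controls at 84 to 220, again with a median of 168.5. The groups overlapped in both lines, through siDicer replicate 1 in D11 and replicates 1 and 2 in TPC1. Within each replicate number, however, siDicer lay below both NT and NC in both lines. The fitted log2 change was -1.47 ± 0.33 in D11 and -1.02 ± 0.42 in TPC1 (adjusted p = 0.00719 and 0.130). With the replicate number as a block in limma, LINC01021 was called lower in TPC1 too. The changes were then -1.47 ± 0.20 in D11 and -1.02 ± 0.20 in TPC1 (adjusted p = 0.000739 and 0.00867). Replicate 3 was the lowest of its group in all 6 groups, and the D11 call was lost when the libraries numbered 2 were left out, at -1.89 to -1.01 over all alternatives.

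A group of low LINC RNAs fell by more than 1 on the log2 scale in D11. LINC01504 was at 18, 30 and 22 with siDicer against 40 to 54, median 52 (log2 change -1.10 ± 0.21, adjusted p = 0.00322), and kept its call under every alternative. LINC00501 was at 11, 27 and 30 against 32 to 65, median 47 (-1.17 ± 0.31, adjusted p = 0.0180), and LINC00601 at 8, 23 and 24 against 31 to 43, median 34 (-1.03 ± 0.31, adjusted p = 0.0321). No siDicer library of these 3 reached a control in D11. All 3 passed the level limit through groups other than D11 siDicer, so their tests are not independent of the choice. In TPC1 each of them had an overlap: LINC01504 was at 31, 68 and 39 against 58 to 88, LINC00501 at 24, 50 and 12 against 41 to 80, and LINC00601 at 13, 31 and 17 against 22 to 44. In all 3, TPC1 siDicer replicate 2 was the highest of its group. All 3 were called in TPC1 without the libraries numbered 2 and also with the replicate number as a block. In D11, leaving out the libraries numbered 2 ended the calls of LINC00501 and LINC00601, as did NC alone as the control. The LINC00501 call was also lost without siDicer replicate 1, and that of LINC00601 with NT alone, without the filter on low values and without NT replicate 2 or 3, NC replicate 3 or siDicer replicate 1.

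Among the LINC RNAs of higher level that fell in D11, LINC00857, studied in lung and other carcinomas, was at 172, 243 and 230 against 262 to 437, median 380.5 (log2 change -0.77 ± 0.17, adjusted p = 0.00652). LINC00294 was at 99, 87 and 75 against 130 to 180, median 152 (-0.78 ± 0.15, adjusted p = 0.00387). LINC00467, which also encodes a small mitochondrial peptide, was at 198, 213 and 199 against 269 to 388, median 334 (-0.69 ± 0.13, adjusted p = 0.00254). None of the 3 overlapped its D11 controls, and each kept its D11 call under every alternative. In TPC1 they were at -0.43 ± 0.13, -0.58 ± 0.14 and -0.36 ± 0.10, with adjusted p under the threshold (0.0498, 0.0192 and 0.0430) and a change under the fold minimum. LINC01910 fell in D11 from a control mean of 46.7 ± 7.4 (SD, n = 6) to 26.7 ± 5.5 (SD, n = 3), with a log2 change of -0.79 ± 0.21. The remaining 4, LINC00662, LINC01089, LINC00339 and LINC02210, had log2 changes between -0.74 and -0.66. LINC00662 lost its call with NC alone as the control, at -0.56 ± 0.15, just under the fold minimum, and kept it whichever library was left out. LINC01910 and LINC02210 lost theirs with NC alone, without the libraries numbered 2 and without siDicer replicate 1 or 3, and LINC01910 also with NT alone. LINC00339 lost its call without siDicer replicate 1, and LINC01089 with either control alone, without the filter on low values and without NT replicate 2, NC replicate 2 or 3, or siDicer replicate 1 or 3.

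**Figure D4:**
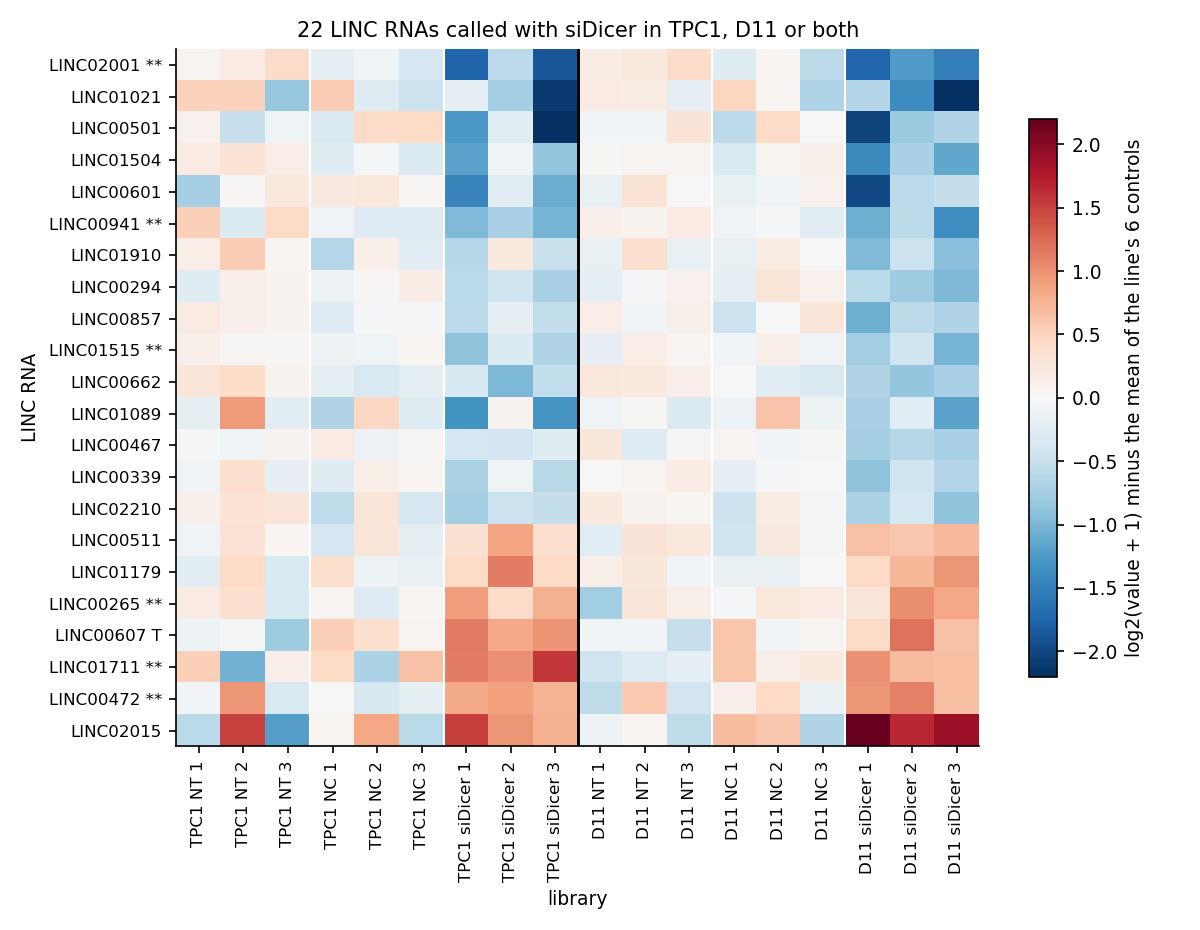
log2(value + 1) of the 22 LINC RNAs called with siDicer, in each library, minus the mean of the 6 controls of the same line, in blue below and red above that mean. Rows are ordered by the D11 log2 change, ** marks the 6 called in both lines, T the 1 called in TPC1 alone, unmarked rows were called in D11 alone, and the black line parts TPC1 from D11; the D11 siDicer libraries keep 1 colour in almost every row, while TPC1 siDicer replicate 2 is paler than replicates 1 and 3 in most rows that fell.

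Counted by libraries alone, all 3 siDicer libraries lay above all controls for 7 LINC RNAs and below for 11 in TPC1, where 7.62% and 9.91% of all genes did so. In D11 the counts were 9 and 16, beside 11% and 14.1% of all genes. With the replicate number as a block, which pairs the D11 libraries, the D11 counts were 8 higher and 16 lower: LINC01137 (log2 change 0.85 ± 0.20, adjusted p = 0.0100), LINC02009 (0.79 ± 0.21, adjusted p = 0.0188) and LINC01589 (-0.85 ± 0.28, adjusted p = 0.0468) were called in addition. Without the block, LINC01137, LINC02009 and LINC01589 had an adjusted p of 0.0621, 0.161 and 0.0936. All 21 LINC RNAs called without the block were called with it. Over all genes the block called 1063 higher and 1380 lower of 18413 in D11.

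The 22 LINC RNAs called in either line resembled the other 72 in level and place. Their median level was 103 reads per 20 M against 116, their median exon length 4258 bases against 4772, and their median distance to a protein-coding start 63.2 kb against 53.6 kb, and 17 of 22 overlapped another gene against 48 of 72. The highest of them stood at a mean of 665. Of the 10 LINC RNAs with the highest mean, 1 was called in D11, LINC00511, and none in TPC1. LINC00958 was at log2 changes of 0.11 ± 0.14 and 0.19 ± 0.11 in TPC1 and D11, LINC00963 at -0.02 ± 0.15 and -0.07 ± 0.09, and LINC00094 at 0.00 ± 0.07 and -0.06 ± 0.09. The intervals of LINC00094 were -0.16 to 0.16 in TPC1 and -0.27 to 0.14 in D11.

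Of 18 LINC RNAs studied in cancer that were listed by hand, with earlier results of these data known, 13 were tested in D11 and 12 in TPC1. In D11, LINC00511 rose and LINC00941, LINC00857, LINC00662 and LINC00707 fell, where 5.26% of all genes rose and 6.75% fell. In TPC1 LINC00941 fell, where 3.22% of all genes rose and 4.16% fell. With so few members and a list chosen this way, these counts describe the members only. LINC00707 is not among the 94, since its mean was 17.3, and stood at 8 with siDicer against 31.7 in D11 controls (log2 change -1.99 ± 0.38, adjusted p = 0.00335). The median log2 change of the tested members of this list was -0.38 in D11 and -0.06 in TPC1, beside -0.04 over all genes in each line. Of 7 LINC RNAs with a reported peptide, 2 were tested, LINC00467 above and LINC00116. LINC00116 was at 161, 184 and 215 in D11 siDicer against 188 to 389, and at 176, 150 and 185 in TPC1 siDicer against 168 to 253, with log2 changes of -0.50 ± 0.19 and -0.36 ± 0.14 (adjusted p = 0.0839 and 0.109).

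Noncoding RNAs are cleared by the nuclear exosome with its adaptors and, in the cytoplasm, by nonsense-mediated decay. Of the 21 tested genes of that machinery reported here, 2 were called in D11, both lower, where 12% of all genes were called, and the median log2 change of the 21 was -0.16 in D11 and -0.15 in TPC1. EXOSC9, an exosome subunit, was at 816 reads per 20 M with siDicer against 1436 in D11 controls (log2 change -0.82 ± 0.10, adjusted p = 0.000329). ZCCHC8, part of the nuclear exosome targeting complex, was at 348 against 523 in D11 (-0.59 ± 0.09, adjusted p = 0.00116). In TPC1 they were at log2 changes of -0.56 ± 0.16 and -0.57 ± 0.11 (adjusted p = 0.0389 and 0.00963), both under the fold minimum. SMG5 and SMG6, factors of nonsense-mediated decay, were above every control in both lines with changes under the fold minimum, at 0.30 ± 0.08 and 0.36 ± 0.10 in TPC1 and 0.23 ± 0.08 and 0.35 ± 0.10 in D11. The part of these genes in the LINC RNA results was not tested. Of 13 microRNA pathway genes, DICER1 alone was called in each line.

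The comparison of NC with NT asks what the transfection with a control siRNA did. Without a replicate block, by limma as by voom on recovered reads, none of the 94 LINC RNAs was called in TPC1 or D11, where 0.111% and 0.35% of all genes were (0.0333% higher and 0.0777% lower in TPC1, 0.15% and 0.2% in D11). With the replicate number as a block, 6 were called higher and 5 lower in TPC1, beside 300 and 265 of 18008 genes. In D11, where the block pairs the libraries, LINC01588 and LINC02188 were called higher, beside 195 higher and 120 lower of 17992 genes. The outcome therefore depended on the block. At an unadjusted p under 0.05 there were 17 in TPC1 (18.1%, against 11.1% of all genes) and 14 in D11 (14.9%, against 13.6%). The NC libraries lay above all NT libraries for 7 LINC RNAs in TPC1 and 9 in D11, and below for 12 and 9, beside 8.2%, 10.8%, 8.33% and 9.03% of all genes. LINC01588, LINC01341 and LINC01094 lay above, and LINC01806, LINC00662 and LINC02001 below, in both lines. The share of all genes that did so in both lines was not counted, so these names are a description only.

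LINC01588, the RNA with MIR6076 on its opposite strand, was high with the control siRNA and not with siDicer. The TPC1 libraries of NT held 100, 69 and 107, those of NC 158, 160 and 140, and those of siDicer 82, 107 and 91. The D11 libraries of NT held 85, 73 and 86, those of NC 150, 137 and 143, and those of siDicer 104, 87 and 84. No NC library overlapped another group of its line. NC against NT gave a log2 change of 0.75 ± 0.20 in TPC1 and 0.81 ± 0.17 in D11 (adjusted p = 0.228 and 0.0939), and with the replicate block both changes were called (adjusted p = 0.0384 and 0.0360). Against NC alone, siDicer was called lower in both lines, with log2 changes of -0.71 ± 0.15 in TPC1 and -0.64 ± 0.16 in D11, and against the 6 controls it was not called, at -0.34 ± 0.25 and -0.24 ± 0.24.

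LINC01341 lay above NT in both transfected groups. It was at 15, 21 and 14 in TPC1 NT, at 54, 38 and 50 after the control siRNA and at 65, 43 and 67 after siDicer, and in D11 at 23, 28 and 17, then 51, 40 and 48, then 57, 53 and 61. Every transfected library lay above every NT library in both lines. NC against NT gave 1.46 ± 0.27 in TPC1 and 1.02 ± 0.27 in D11 on the log2 scale (adjusted p = 0.0976 and 0.168). With the replicate block the TPC1 change was called (adjusted p = 0.0167, limma). With NT alone as the control, siDicer was called higher in both lines, at 1.74 ± 0.28 and 1.32 ± 0.26. LINC02188 was at 26, 0 and 16 in TPC1 NT and 123, 34 and 48 in NC, and in D11 at 56, 13 and 17 in NT and 154, 40 and 50 in NC. Its siDicer libraries held 106, 21 and 79 in TPC1 and 132, 83 and 73 in D11. NC overlapped NT in D11 and siDicer overlapped NT in TPC1, and without the block NC against NT was not called in either line, at 2.95 ± 1.13 in TPC1 and 1.5 ± 0.60 in D11 (adjusted p = 0.397 and 0.323). Replicate 1 was the highest of each of these 6 groups. With the block the D11 change of 1.5 ± 0.23 and the TPC1 change of 2.95 ± 0.56 were called (adjusted p = 0.0115 and 0.0140).

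The comparison of D11 with TPC1 over the 12 control libraries asks what the loss of 1 Dicer1 allele, or any other trait of this clone, went with. In these libraries the allele and the clone cannot be told apart. LINC01234 was the only LINC RNA called, and fell, 1.06% of the 94 beside 1.02% of 18814 genes tested. It was at 60, 56, 63, 63, 48 and 47 in the TPC1 controls and at 20, 22, 15, 10, 14 and 8 in the D11 controls, with no overlap. This was a log2 change of -1.92 ± 0.19 (adjusted p = 5.71e-05), and it was called under every alternative. With siDicer it was at 72, 41 and 52 in TPC1 and at 6, 6 and 9 in D11, where few reads remain. The study also measured LINC01234 by quantitative PCR in TPC1, D11 and the other Dicer1 (+/-) clones WB1 and TD5. It was taken there from the genes changed in all of these clones in a separate sequencing experiment. The study reports that the PCR results bore out that sequencing. LINC01293 was at 211 to 301 in TPC1 and 151 to 208 in D11 controls (log2 change -0.47 ± 0.09, adjusted p = 0.0164), under the fold minimum. LINC01234, LINC01293 and LINC01504 were the 3 whose D11 controls all lay below the TPC1 controls, and none lay above, beside 0.951% and 0.308% of all genes.

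**Figure D5:**
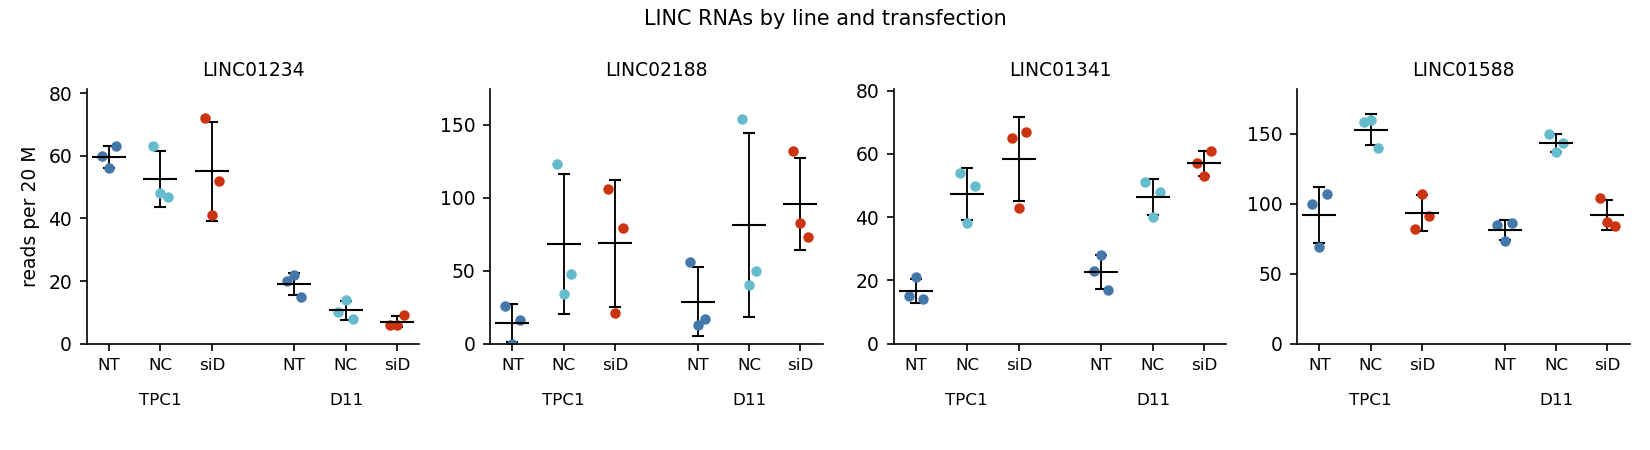
Reads per 20 M in each library for LINC01234, LINC02188, LINC01341 and LINC01588, with NT in dark blue, NC in light blue and siDicer (siD) in red. Points are single libraries and the bar with whiskers is the mean ± SD of 3; LINC01234 is at 8 to 22 in D11 controls and 47 to 63 in TPC1 controls, and LINC01588 is at 137 to 160 in NC and does not exceed 107 in the other groups.

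Whether the siDicer change differed between lines was tested as the interaction over all 18 libraries. By limma, as by voom on recovered reads, none of the 94 was called, as by limma was none of 19181 genes tested (0%), and the smallest adjusted p was 0.99982. At an unadjusted p under 0.05 there were 3 LINC RNAs (3.19%, against 0.693% of all genes). A share of 0.05 goes with that threshold when no gene differs, so this fit may be conservative. That none was called does not show that the lines responded alike. LINC00174 was lower with siDicer in TPC1 and higher in D11, at log2 changes of -0.37 ± 0.16 and 0.22 ± 0.21, a difference of 0.58 ± 0.26. LINC01234 differed by -0.87 ± 0.39 and LINC00467 by -0.33 ± 0.15. None of the 94 had all siDicer libraries above the controls in one line and below them in the other.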

How the data were processed

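RNA was sequenced from 18 libraries. Per the study's methods and the labels, the authors aligned reads to GRCh38 with STAR 2.5.3a and used HTSeq 0.9.1 with Ensembl release 90 for gene counting. The table the authors deposited holds a score rather than counts: reads scaled to 20 M per library and rounded up. The test named in the study's methods needs counts, so limma 3.58.1 in R 4.3.3 (lmFit, eBayes with trend) was applied to log2(value + 1), which understates changes of low genes. Genes that reached 10 in 3 or more libraries of a comparison entered, p-values were adjusted by Benjamini-Hochberg over all of them, and calls needed an adjusted p below 0.05 and a 1.5-fold difference or more. The fit was tested on simulated data. The 3 siDicer libraries of a line were set against its 6 controls, NC against NT within a line, and D11 against TPC1 over 12 controls with transfection as a term.

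Groups follow the sample descriptions, which equal the column names; the titles of 12 of 18 samples name another group. The LINC RNAs and gene lists were chosen with earlier results of these data known. Some genes of the lists are not reported here. Positions are from GENCODE release 44, matched by gene identifier for 94 of 94. The text names 10 LINC RNAs by level per kb, up to 10 per direction and siDicer comparison by log2 change, the calls of the other comparisons, the 3 with the smallest interaction p, those with a microRNA gene, those on the peptide and p53 lists, those next to the level limit, and the nearest coding gene of those called in both lines. Others were named after their values were seen. Same-numbered libraries deviated together in D11 (correlation over 0.1 in 9 of 9 pairs, 0.106 to 0.473), which was taken as a pairing. In TPC1 7 of 9 pairs did (0.086 to 0.509 over the 9), and in each line 3 of 18 differently numbered pairs exceeded 0.1. The TPC1 numbers were not taken as a pairing on this count. The main fits of both lines had no block, so the D11 calls and p-values also ignore the pairing unless the block is named. Counts with the block are given for both lines. The alternatives are named in the closing section. Precision is limited by 3 to 6 libraries per group, and a floor of 3 reads is at most 5.32 units, which covers counting error only. Figures were drawn with matplotlib.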

Additional observations from a re-analysis of the deposited data

Results flagged for a closer look

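In 4 of 72 checks of a named RNA in the 6 control libraries of a line, 1 library lay far from the other 5 by Dixon's test, which flags about 1 in 20 groups by chance. LINC00472 was at 504 reads per 20 M in TPC1 NT replicate 2, where the next control was at 256. LINC00601 was at 22 in TPC1 NT replicate 1, where the next lowest control was at 38. LINC01504 was at 40 in D11 NC replicate 1, where the next lowest was at 51. LINC01943 was at 581 in D11 NT replicate 1, where the next highest was at 429. TPC1 NT replicate 2 and D11 NT replicate 1 are 2 of the 4 libraries that stood apart from their replicates over all genes, and their part in these values was not tested.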

How the results depend on the processing

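Each LINC RNA called in a comparison, and DICER1, kept its direction under every alternative. Of 650 re-computed log2 changes, 540 stayed on their side of the threshold and 110 did not, 47 of them among 168 in TPC1 siDicer and 63 among 461 in D11 siDicer. The counts of calls moved more. In TPC1 siDicer, 4 higher and 3 lower became 2 and 5 with a pseudocount of 0.1, 1 higher without the filter on low values, 5 lower with a filter on a mean of 30, 8 lower without a fold minimum, 7 lower with voom on recovered reads, 2 and 5 with NT alone, 2 and 6 with NC alone, and 7 and 15 without the libraries numbered 2, an alternative chosen after seeing the data. Over all genes these TPC1 settings called 509 to 1134 higher and 493 to 1466 lower, against 594 and 769 in the main fit. In D11 siDicer, 6 higher became 3 without the filter and 3 without the libraries numbered 2, where 962 and 784 of all genes were higher, against 969 in the main fit. Median-of-ratios and quantile scaling moved no count by over 1.5 times. Over all genes, leaving out single libraries gave 159 to 844 higher and 259 to 1250 lower in TPC1 siDicer, and 592 to 1106 and 782 to 1358 in D11 siDicer. The LINC RNA counts follow. Leaving out single libraries gave 0 to 8 higher and 0 to 13 lower in TPC1, 2 to 8 and 9 to 16 in D11, 0 in both NC against NT comparisons and in the interaction, and 0 higher and 1 lower in D11 against TPC1, where omitting the fold minimum gave 2 lower.

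With the replicate number as a block, TPC1 siDicer had 5 higher and 11 lower, TPC1 NC against NT 6 and 5 (LINC01341, LINC02188, LINC02085 and LINC01588 among the 6), D11 NC against NT 2 and 0, D11 siDicer 8 and 16, and D11 against TPC1 1 and 1. In the same order, the block called 781 and 1015, 300 and 265, 195 and 120, 1063 and 1380, and 67 and 318 over all genes. The interaction still called none. The TPC1 numbers were not taken as a pairing, on 7 of 9 same-numbered pairs over 0.1 against 9 of 9 in D11. That difference is small, so the TPC1 counts are given with and without the block. The cause of each move was not tested. Depth limits the 41 LINC RNAs with a mean under 100, whose coefficient of variation within groups had a median of 22.1%, against 13.9% for the others.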

Other observations

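Some LINC RNAs passed the adjusted p in 1 or both lines with a change under the fold minimum, and were chosen for mention after their values were seen. LINC00641 was at 369 with siDicer against 547 in TPC1 controls and at 391 against 521 in D11, with log2 changes of -0.58 ± 0.12 and -0.42 ± 0.12 (adjusted p = 0.0107 and 0.0236, limma). LINC00973, which ranked 2 per kb of exon, was at 429 against 614 in TPC1 and 407 against 599 in D11, with log2 changes of -0.55 ± 0.22 and -0.54 ± 0.14 (adjusted p = 0.122 and 0.0180). LINC01128 was at 335 against 249.8 in D11 (0.42 ± 0.11, adjusted p = 0.0144) and LINC00667 at 242 against 170.5 in D11 (0.51 ± 0.14, adjusted p = 0.0195), and in TPC1 they were at 0.38 ± 0.15 and 0.52 ± 0.18.

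LINC02085, now named RDUR, was high in the TPC1 NC libraries alone: its TPC1 values were 60, 57 and 75 without transfection, 110, 128 and 124 with NC and 48, 58 and 45 with siDicer, and its D11 values in the same order 53, 44 and 70, then 47, 85 and 82, then 44, 52 and 55. The NC libraries of D11 overlapped NT. The TPC1 difference between NC and NT was 0.91 ± 0.18 on the log2 scale (adjusted p = 0.121). With the replicate block it was called (adjusted p = 0.0142, limma).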
